A study of Mus musculus with 30 samples.

Results

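The genes described here encode the proteins of the cytoplasmic ribosome, measured in mouse blood with and without x-ray irradiation in 3 p38 genotypes. They were chosen by name among the non-control probes of the array: Rpl or Rps followed by digits and at most one of the letters a, l and x, together with Rplp0, Rplp1, Rplp2 and Rpsa. A probe counted as measured where at least 1 group had 4 or more of its 5 spots well above background, and the brightest such probe stood for the gene. The array named 81 such genes on 188 probes, and 80 genes with 182 kept probes passed, out of 18733 genes in the whole table. The gene that did not pass was Rpl3l, well above background on at most 2 of 5 arrays of any group. A list of 77 proteins of the mouse cytoplasmic ribosome under these names was measured for 75; Rpl37 and Rps3a had no kept probe under those symbols. The other 5 members, Rps27l, Rps4l, Rpl39l, Rpl10l and Rpl32l, are named after a parent gene and are called paralogues here. Of the 80 members, 78 were well above background on all 30 arrays, and no member's spot was saturated.

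The cytoplasmic ribosome is built from a small subunit (Rps proteins), which reads the messenger RNA, and a large subunit (Rpl proteins), which joins amino acids, with a stalk of P proteins on the large subunit that recruits the elongation factors. Ribosomal protein mRNAs are among the most abundant of a cell. They typically begin with a C followed by a run of pyrimidines, the 5′ terminal oligopyrimidine (TOP) tract, through which their translation is tied to growth signalling, and several free ribosomal proteins, among them Rpl5 and Rpl11, bind Mdm2, the ubiquitin ligase that limits p53. The p38 kinases are stress-activated protein kinases. In blood, ribosomal protein mRNA comes from nucleated cells and from reticulocytes and platelets, which still carry mRNA.

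Male C57BL/6J mice were p38WT, p38DKI or p38DN, and their blood was drawn by cardiac puncture at euthanasia into an RNA stabiliser, and total RNA was labelled with 1 dye and hybridised to 30 arrays. Each genotype had an unirradiated group and a group sampled 24 h after 7 Gy, and the design gives 5 independent experiments for each genotype and treatment. The labels write the alleles only as DKI and DN; the age of the mice is not given in the sources used here. Levels are log2 of the array's background-corrected signal minus the 75th percentile of the same array, and a difference of 1 is a doubling.

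Before any comparison, the arrays were compared with each other. Arrays 4 and 5 of unirradiated p38DN, and arrays 1 and 5 of irradiated p38DN, were close to each other in cell marker levels. The largest difference between the arrays of a pair in the mean of any blood cell marker list was 0.0750 and 0.0603 log2. Every other pair of arrays within a group differed by at least 0.437. Over 4062 genes the spread of the difference was 0.119 and 0.195 for the p38DN pairs. On that measure the irradiated pair did not stand out: unirradiated p38WT arrays 2 and 3, kept apart, had 0.194. The family's median was 7.32 and 7.22 on the unirradiated p38DN pair, and 7.12 and 6.89 on the irradiated one. Each p38DN pair close in marker levels was averaged and counted as 1 sample, which left 28 samples and n = 4 in both p38DN groups. The 75th percentile of the arrays lay between intensities of 43.3 and 230, and 39.7% to 63.2% of probes were well above background. Irradiated p38DKI array 2 stood apart: its mean over 22 liver markers was 8.82 log2 above the median of all arrays, and unirradiated p38DN arrays 2, 4 and 5 lay 6.81 to 7.81 above it. The arrays unirradiated p38WT 1 and 3, irradiated p38WT 2, unirradiated p38DKI 5 and irradiated p38DN 3 lay over 1 log2 above the median for 10 heart muscle markers. Of the 5 slides with p38WT and p38DKI arrays, 2 held only p38WT, 2 only p38DKI, and 1 held irradiated p38WT and unirradiated p38DKI. The p38DN arrays lay on 5 other slides, so for levels of p38DN against p38WT the genotype and the slide set cannot be told apart and none is compared.

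The annotated start sites of these genes are shown first, because the pyrimidine tract is the feature that the family's mRNAs are known for and the choice of genes did not use it. Each window runs from 15 bases before the annotated start to 15 bases from it, on the gene's strand, from the RefSeq annotation of GRCm38.p6. Capitals mark the tract, defined as C at the annotated start followed by at least 4 bases that are C or T. The first 7 genes carry it. Rps26, which was lower in every genotype, Rpl39l and Rps27l, which was higher in every genotype, are shown as windows without it.
Rps6, chr4:86857353-86857382, minus strand: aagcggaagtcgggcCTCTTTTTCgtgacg
Rps27, chr3:90213634-90213663, minus strand: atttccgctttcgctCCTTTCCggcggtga
Rplp2, chr7:141447636-141447665, plus strand: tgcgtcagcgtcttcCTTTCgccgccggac
Rpl15, chr14:18270972-18271001, minus strand: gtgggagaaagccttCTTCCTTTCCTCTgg
Rps18, chr17:33955651-33955680, minus strand: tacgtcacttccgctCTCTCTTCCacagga
Rps10, chr17:27635230-27635259, minus strand: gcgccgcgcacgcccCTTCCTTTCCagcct
Rpl28, chr7:4792950-4792979, plus strand: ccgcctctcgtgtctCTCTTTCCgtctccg
Rps26, chr10:128626492-128626521, minus strand: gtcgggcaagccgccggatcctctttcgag
Rpl39l, chr16:10170213-10170242, plus strand: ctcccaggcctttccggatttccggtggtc
Rps27l, chr9:66946071-66946100, plus strand: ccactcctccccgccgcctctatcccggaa

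Genes on chromosome 18, among them Rpl17 and Rps14, were left out of both searches. A promoter entry was used for 59 of the 80 genes. The tract stood at the annotated start in 13 of them (22.03%), against 673 of 27025 genes with a used entry (2.49%). A looser search, for a run of 8 or more C or T beginning with C within 50 bases of the start on the gene's strand, found one in 48 of the 59 (81.4%) and in 28.7% of all entries. Both searches used the gene's strand alone, and a window without the tract says only that these letters are absent at the annotated position. The 13 genes with the tract changed after irradiation by a median log2 of -0.47 in p38WT, -0.84 in p38DKI and -0.44 in p38DN. The 46 without it changed by -0.47, -0.74 and -0.32.

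The first question was what 7 Gy did to the family in the blood of p38WT mice. The level of the family in a sample, the median over the 80 genes, was 8.56, 8.66, 8.68, 8.79 and 8.41 without irradiation and 8.06, 8.06, 8.48, 8.001 and 8.08 after it. Irradiated sample 3 lay above the lowest unirradiated one, and the other 4 lay below all unirradiated samples. The array of sample 3 had the lowest share of probes well above background of all arrays, 39.7%. Several members, among them Rpl17, Rpl18, Rps9 and Rps27l, had no value on it, so its level is a median over fewer genes. Against unirradiated blood, 39 of the 80 genes were lower and 1 was higher at an adjusted p under 0.05 (limma, Benjamini-Hochberg over all 18733 genes), where 11.9% of all genes were lower and 14.9% higher. The median change was -0.50, a 1.41-fold fall, beside -0.03 for all genes, and 71 of the 80 changes were negative. For 28 genes all irradiated samples lay below all unirradiated ones, and for 1 they lay above, against 11.4% and 12.9% of all genes.

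In p38DKI the family's level was 9.11, 8.94, 8.59, 8.80 and 8.92 without irradiation and 8.40, 7.19, 8.39, 8.10 and 8.32 after it, so the groups did not overlap and array 2, the array high in liver markers, was the lowest. Here 55 genes were lower and 1 was higher, against 19.2% and 12% of all genes. The median change was -0.74, a 1.67-fold fall, beside -0.25 for all genes, and 77 changes were negative. All irradiated samples lay below all unirradiated ones for 41 genes and above them for 1, against 12.5% and 7.23% of all genes. Without array 2 the median change was -0.53 and 43 genes were lower.

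In p38DN the level was 7.66, 7.52, 7.85 and 7.26 without irradiation and 6.97, 7.36, 7.36 and 7.12 after it (n = 4 and 4), and the groups overlapped. Lower genes numbered 12 and higher genes 1, against 8.72% and 14.2% of all genes. The median change was -0.38, a 1.30-fold fall, beside -0.03, with 74 negative changes. Samples of the groups did not overlap for 20 genes that were lower and 2 that were higher, against 9.62% and 13.6% of all genes. The p38DN count moved with single arrays: it was 2 without unirradiated sample 3 and 34 without the 4 arrays highest in liver markers. The level of the family differed between the genotypes' slide sets, and only differences within a genotype are read here.

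**Figure D1:**
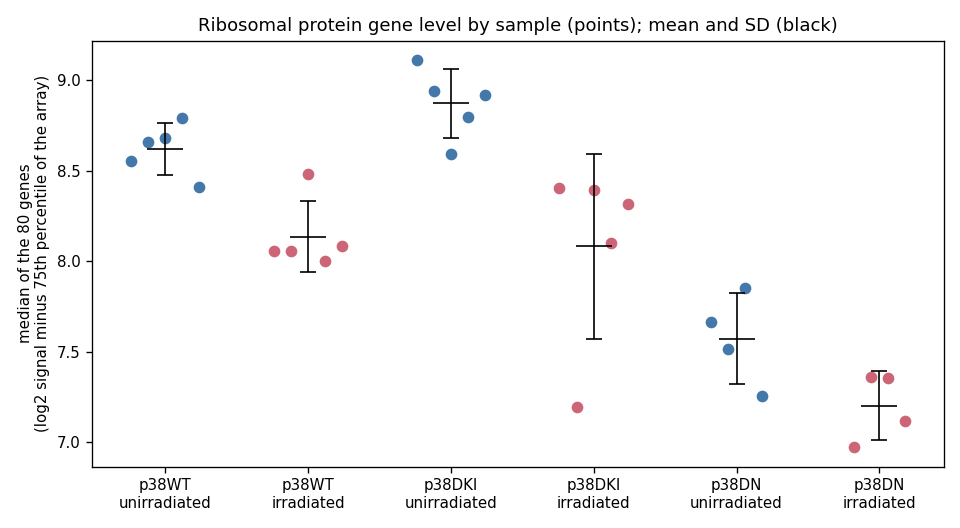
Level of the ribosomal protein genes in each sample, as the median over the 80 genes of log2 signal minus the 75th percentile of the array; points are samples (5 per group, 4 in the p38DN groups), and the black bars give mean and SD. The mean went from 8.62 to 8.14 in p38WT, from 8.87 to 8.08 in p38DKI, where 1 irradiated sample lies at 7.19, and from 7.57 to 7.20 in p38DN.

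The size of the fall depended on how arrays are scaled, and the median of all genes was itself -0.25 in p38DKI. Relative to the median of all genes the family was lower by 0.47 log2 in p38WT, 0.49 in p38DKI and 0.34 in p38DN. The family's median was negative in every genotype under all scalings tried, apart from the setting that puts the family's own median at 0 (0.05 in p38DKI), but its size was not constant: without any scaling it was -0.93 in p38WT and -0.11 in p38DKI, and after scaling to the array median it was -0.32 in p38DKI. Counts depended on it more: in p38DKI, 15 genes were lower after scaling to the array median, 25 after quantile normalization and 0 without scaling.

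Slides were only partly shared by irradiated and unirradiated samples. On the 1 slide that held both p38WT groups (3 irradiated, 1 unirradiated) the median change was -0.17 with 52 of 80 genes negative, and on the 1 slide with both p38DKI groups (1 and 3) it was -0.42 with 63 negative. Each p38DN slide held 1 array of either group, and the 5 medians were -0.29, -0.48, -0.50, -0.29 and -0.20 with 60 to 72 genes negative. These 5 values are not taken as separate, since the arrays averaged elsewhere lie on different slides. The fits with slide as a block use all 30 arrays. With slide as a fixed block, in which p38WT and p38DKI rest on those single slides, 0 genes were lower in p38WT and in p38DKI and 15 were lower in p38DN. With slide as a random block the counts were 39, 62 and 15. Without the 5 arrays high in heart muscle markers 11 genes were lower in p38WT, with a median of -0.50, and 5 in p38DN. Without unirradiated p38WT sample 4 the p38WT count was 24.

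**Figure D2:**
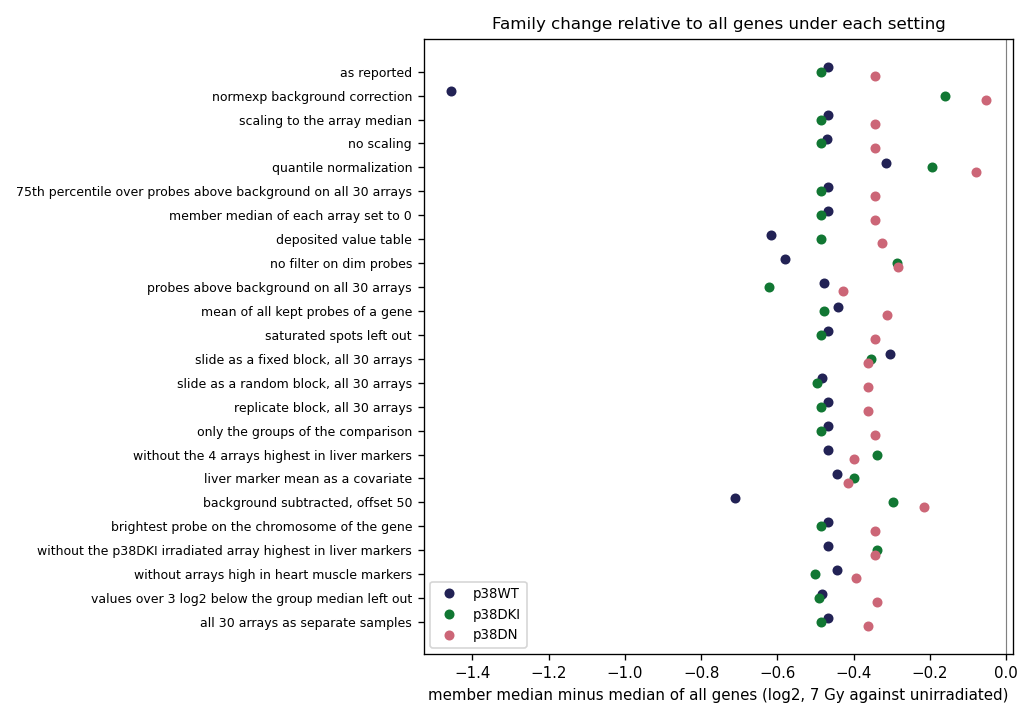
Change of the family's median 24 h after 7 Gy minus the change of the median of all genes (log2), for each genotype and each way of processing the arrays. All points lie below 0; the reported values are -0.47 in p38WT, -0.49 in p38DKI and -0.34 in p38DN.

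Cell type markers moved at the same time. Of all genes, 11.9%, 19.2% and 8.72% were lower in p38WT, p38DKI and p38DN, and 14.9%, 12% and 14.2% were higher. B cell markers were lower for 17 of 18 genes in p38WT, 18 of 18 in p38DKI and 17 of 18 in p38DN, T cell markers for 6, 13 and 6 of 18 (1 was higher in p38DN), and erythroid markers for 7, 13 and 11 of 21 (3, 1 and 3 were higher). Platelet markers were higher for 12, 5 and 12 of 13 genes, neutrophil markers for 12, 10 and 1 of 14 (1 was lower in p38DKI), and NK cell markers for 10, 4 and 0 of 12. Of 10 monocyte markers, 1, 2 and 2 were lower and 2, 2 and 4 higher. The mean level of the B cell markers ranged from 2.86 to 3.46 in unirradiated and -1.31 to -0.69 in irradiated p38WT arrays, from 2.63 to 3.53 and -2.79 to -0.29 in p38DKI, and from 1.79 to 3.14 and -0.78 to 0.45 in p38DN. In these bulk samples fewer cells of a type and less RNA per cell cannot be told apart, and the part of the cell mixture in the family's fall was not tested.

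Among small subunit genes, 19 of 30 were lower in p38WT, 22 in p38DKI and 8 in p38DN, with median changes of -0.64, -0.83 and -0.42. Rps26, a protein at the exit channel where mRNA leaves the small subunit, was lower in all 3. In p38WT its levels were 7.63, 7.73, 7.76, 7.90 and 7.66 without and 6.57, 6.69, 7.37, 6.57 and 6.42 after irradiation. Its p38DKI levels were 7.999, 8.47, 7.89, 7.75 and 7.95 without and 6.73, 6.15, 7.07, 6.94 and 7.39 after, and its p38DN levels 7.16, 7.27, 7.63 and 6.91 without and 5.96, 6.57, 6.42 and 6.38 after. No irradiated sample reached an unirradiated one of its genotype. The changes were -1.01 ± 0.21 (SE, adjusted p = 0.00088), -1.16 ± 0.21 (adjusted p = 0.00025) and -0.91 ± 0.24 (adjusted p = 0.0065), by limma.

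Rps16, Rps15 and Rps28, all proteins of the small subunit, were also called in every genotype. Rps16 changed by -0.82 ± 0.21 in p38WT, -1.04 ± 0.21 in p38DKI and -0.71 ± 0.23 in p38DN. Its irradiated samples lay wholly below the unirradiated ones in each genotype. Rps15 changed by -0.65 ± 0.21, -1.05 ± 0.21 and -0.80 ± 0.23, with an overlap in p38WT, where 1 irradiated sample stood at 9.06, and in p38DN. Rps28 changed by -0.58 ± 0.21, -0.81 ± 0.21 and -0.70 ± 0.23. Rpsa, the laminin receptor homologue of the small subunit, was lower in p38WT (-0.65 ± 0.20, n = 4 irradiated because 1 spot was marked as defective) and p38DKI (-0.87 ± 0.19); its p38DN change was -0.40 ± 0.21 (adjusted p = 0.17).

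Rps4x, the X-linked copy of the eS4 protein, had p38WT levels of 7.80, 7.74, 7.76, 7.92 and 7.44 without and 6.58, 6.81, 7.08, 6.77 and 6.77 after irradiation, which did not overlap. It changed by -0.93 ± 0.18 there (adjusted p = 0.00051) and by -1.01 ± 0.18 in p38DKI (adjusted p = 0.00022). In p38DN it changed by -0.38 ± 0.20 and was not called. Rps7, one of the proteins that bind Mdm2, changed by -0.72 ± 0.24 in p38WT (n = 4 irradiated), -0.88 ± 0.22 in p38DKI and -0.20 ± 0.25 in p38DN, the last not called. Rps19, the protein most often affected in Diamond-Blackfan anaemia, was called in no genotype: it changed by 0.24 ± 0.26, -0.22 ± 0.26 and 0.11 ± 0.29, and its groups overlapped in each.

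Rps6, the small subunit protein phosphorylated downstream of mTOR, had 1 value far from the rest. Its p38WT levels were 8.53, 8.51, 8.32, 8.58 and 8.003 without and 7.34, 7.55, 0.55, 7.48 and 7.32 after irradiation, and irradiated sample 3 lay far below the other 4. The change read -2.34 ± 0.79 (adjusted p = 0.03); without that sample it was -0.96 (adjusted p = 0.00023). The other 2 kept Rps6 probes showed no such spot and changed by -0.54 and -0.86. Rps25 was also low on that array, at -0.03 beside 6.37 to 6.68, and its change went from -2.20 ± 0.76 to -0.89 (adjusted p = 0.00074) without it. In p38DKI, where the spread taken over all groups holds those low values, Rps6 (-0.87 ± 0.79) and Rps25 (-0.57 ± 0.76) were not called although their groups did not overlap. The other Rps6 probes were called lower there (-1.002 and -0.55, limma adjusted p = 0.00074 and 0.0031).

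Of the 42 large subunit genes, 18 were lower in p38WT, 30 in p38DKI and 4 in p38DN, with medians of -0.44, -0.65 and -0.37. Rpl29 fell furthest in p38WT among the large subunit genes. Its p38WT levels were 9.37, 9.15, 9.19, 9.37 and 8.59 without and 7.40, 8.19, 8.49, 8.12 and 7.85 after irradiation, with no overlap. It changed by -1.12 ± 0.21 (adjusted p = 0.00029), at -0.88 ± 0.21 in p38DKI (adjusted p = 0.0024) and by -0.56 ± 0.23 in p38DN (adjusted p = 0.082). The 2 dimmer Rpl29 probes read -0.70 and -0.63 in p38WT, so the size of that fall differs by probe while its sign does not. Rpl6 changed by -0.96 ± 0.19 in p38WT (n = 4 irradiated) and -0.65 ± 0.17 in p38DKI, and by -0.31 ± 0.20 in p38DN, not called.

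Rpl8, a protein near the peptidyl transferase centre, was lower in all genotypes, at -0.76 ± 0.19, -1.03 ± 0.19 and -0.75 ± 0.21. Its p38DN levels were 8.59, 8.35, 8.62 and 8.0 without and 7.46, 7.95, 7.69 and 7.47 after irradiation, which did not overlap. Rpl32, Rpl12 and Rpl13a were among the largest falls in p38DKI. Rpl32 changed by -1.08 ± 0.19 there and -0.79 ± 0.19 in p38WT, and its irradiated samples lay wholly below in p38DN too, at -0.39 ± 0.21, without a call. Rpl12 changed by -1.09 ± 0.24 in p38DKI, with sample 2 at 6.91 beside 8.16 to 8.38, and by -0.36 ± 0.24 in p38WT, not called. Rpl13a, a ribosomal protein with a known role in silencing inflammatory mRNAs, changed by -1.10 ± 0.20, -0.63 ± 0.20 and -0.36 ± 0.22 in p38DKI, p38WT and p38DN, the last not called. Rpl3, at the centre of the large subunit, was lower in p38WT (-0.55 ± 0.20) and p38DKI (-0.65 ± 0.20), with -0.11 ± 0.22 in p38DN. Its p38WT groups overlapped, and that call was lost in 16 of 32 alternatives, among them several single samples left out.

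Rpl5, Rpl11, Rpl23 and Rpl26 are among the large subunit proteins known to bind Mdm2. Rpl5 had p38WT levels of 6.22, 6.27, 6.03, 6.48 and 6.12 without and 5.69, 5.29, 5.49, 4.997 and 5.47 after irradiation, without overlap, and changed by -0.83 ± 0.22 in p38WT and -0.90 ± 0.22 in p38DKI, both called. Rpl11 was called lower in p38DKI (-0.56 ± 0.17), with uncalled estimates of -0.24 ± 0.17 in p38WT and -0.02 ± 0.19 in p38DN; its 2 dimmer probes were called lower in p38WT too (-0.54 and -0.63, limma adjusted p = 0.025 and 0.014). Rpl23 was lower in p38WT (-0.66 ± 0.22) and p38DKI (-0.61 ± 0.22), and Rpl26 in p38DKI (-0.57 ± 0.21) with -0.43 ± 0.21 in p38WT. The groups overlapped for each of these calls. The p38DKI calls of Rpl23 and Rpl26 were each kept in only 13 of 33 alternatives, and the p38WT call of Rpl23 in 23 of 33. In p38DKI the changes of Rpl11, Rpl23 and Rpl26 turned slightly positive (0.07, 0.02 and 0.05) without scaling of the arrays. None of the 4 was called in p38DN.

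Of the 3 P stalk genes, 0 were lower in p38WT, 2 in p38DKI and 0 in p38DN. Rplp0, the scaffold of the stalk, had p38DKI levels of 11.13, 10.38, 9.81, 10.26 and 10.60 without and 9.77, 8.14, 9.49, 9.35 and 9.86 after irradiation, which overlap by 1 sample. It changed by -1.11 ± 0.26 in p38DKI (adjusted p = 0.0021), -0.10 ± 0.26 in p38WT and -0.59 ± 0.29 in p38DN. Rplp2 changed by -0.80 ± 0.30 in p38DKI (adjusted p = 0.043), -0.21 ± 0.30 in p38WT and -0.44 ± 0.33 in p38DN. Rplp1 was called nowhere, at -0.10 ± 0.26, -0.54 ± 0.26 and 0.15 ± 0.29. Rpl10, Rpl39 and Rpl41, small or late-joining large subunit proteins, were not called either, and in p38WT Rpl39 (0.42 ± 0.28) and Rpl41 (0.21 ± 0.30) had positive estimates.

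**Figure D3:**
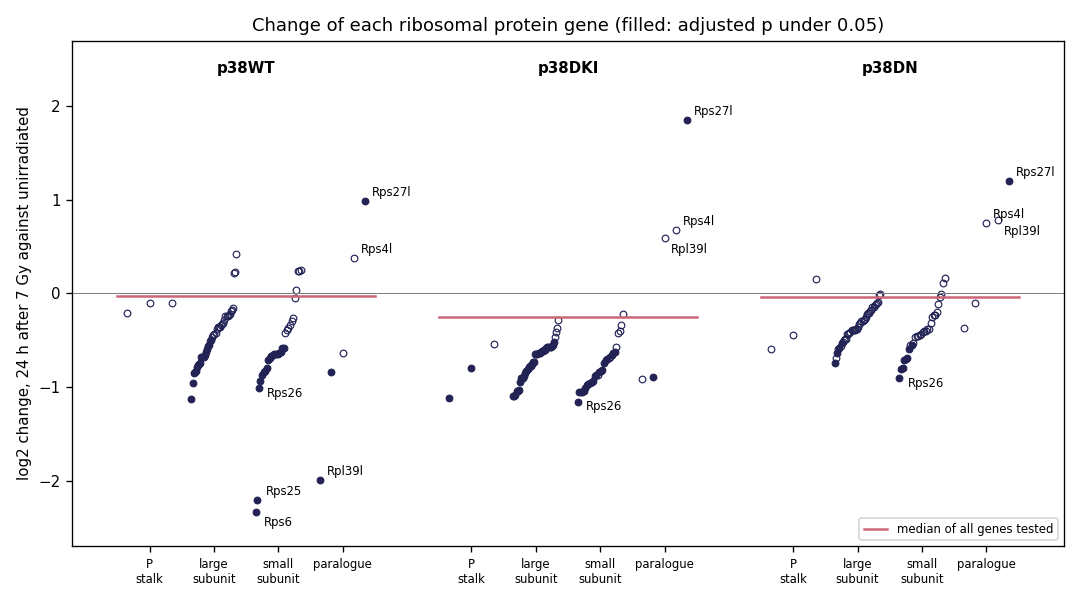
Log2 change of each of the 80 genes 24 h after 7 Gy in the 3 genotypes, grouped by role; filled points had an adjusted p under 0.05 and the red lines give the median of all genes tested (-0.03, -0.25 and -0.03). Most points lie below the line, Rps27l lies above it in each genotype, and the low p38WT points of Rps6 and Rps25 rest on 1 array.

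The paralogues are given beside their parents. Rps27l, a copy of Rps27 known as a p53 target, was the 1 member higher in all 3 genotypes. In p38WT it stood at 4.62, 4.47, 4.43, 4.53 and 4.45 without and 5.60, 5.27, 5.26 and 5.82 after irradiation (n = 4, 1 spot marked as defective). Its p38DKI levels were 4.62, 4.34, 4.33, 4.85 and 4.77 without and 6.16, 6.82, 6.74, 6.11 and 6.34 after. Its p38DN levels were 2.93, 3.16, 2.54 and 3.80 without and 3.83, 4.58, 4.51 and 4.33 after. The groups did not overlap in p38WT and p38DKI. In p38DN they were apart only after the averaging of arrays, at 3.80 against 3.83, and single arrays overlapped. Rps27l rose by 0.99 ± 0.22 (adjusted p = 0.0019), 1.85 ± 0.21 (adjusted p = 9.0e-07) and 1.20 ± 0.23 (adjusted p = 0.00069). On the 5 p38DN slides its difference was 1.42, 1.96, 0.99, -0.05 and 0.51. The rise in p38WT was 0.65 without scaling of the arrays (adjusted p = 0.27).

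Rps27, the parent, moved the other way. In p38WT its levels were 10.64, 10.80, 10.55, 10.56 and 10.14 without and 9.66, 10.01, 10.17, 9.98 and 9.69 after irradiation, its p38DKI levels 10.77, 11.002, 10.49, 10.70 and 10.79 and 10.05, 8.71, 9.92, 9.68 and 10.15, and its p38DN levels 9.04, 8.92, 9.16 and 8.29 and 8.01, 8.12, 8.32 and 7.72. The p38DKI groups did not overlap; the others overlapped by 1 sample at their edges. It was lower, at -0.63 ± 0.22 (adjusted p = 0.036), -1.05 ± 0.22 (adjusted p = 0.0011) and -0.81 ± 0.25 (adjusted p = 0.02). The array file places all 4 kept Rps27 probes on chromosome 9 of mm9, whereas RefSeq has the gene on chromosome 3, so the signal cannot be assigned to the gene apart from near-identical copies. The Rps27l probe lies at chr9:66795486-66797176 of mm9. The longest run that the probes of Rps27l and Rps27 share is 5 bases. That compares probe with probe, not a probe with the other gene's mRNA, so whether either probe also reads the other gene was not tested.

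Rps4l, a copy of Rps4x, had p38DN levels of 0.64, 0.38, 0.22 and 0.55 without and 0.76, 1.54, 0.92 and 1.58 after irradiation, which did not overlap. Its estimates were 0.37 ± 0.26 in p38WT, 0.68 ± 0.26 in p38DKI (adjusted p = 0.052) and 0.75 ± 0.29 in p38DN (adjusted p = 0.067), none of them called. Rpl39l, a copy of Rpl39 best known from testis, was near the background: it was well above it on 5 unirradiated and 2 irradiated p38WT arrays, 5 and 5 in p38DKI, and 0 and 1 in p38DN. Its p38WT levels were -2.55, -0.82, -2.36, -2.98 and -2.28 without and -2.74, -5.70, -4.62, -5.50 and -2.38 after irradiation, and they overlapped. Although it is 1 of the 39 genes counted as lower in p38WT, the size of that difference is not readable from 2 irradiated arrays above background; it was -0.14 after plain background subtraction, without a call. In p38DKI the estimate was 0.59 ± 0.55. Rpl10l was well above background on 0 p38DN arrays, and was called in neither p38WT (-0.63 ± 0.42) nor p38DKI (-0.91 ± 0.42). Rpl32l was lower in p38WT (-0.84 ± 0.21) and p38DKI (-0.90 ± 0.21).

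**Figure D4:**
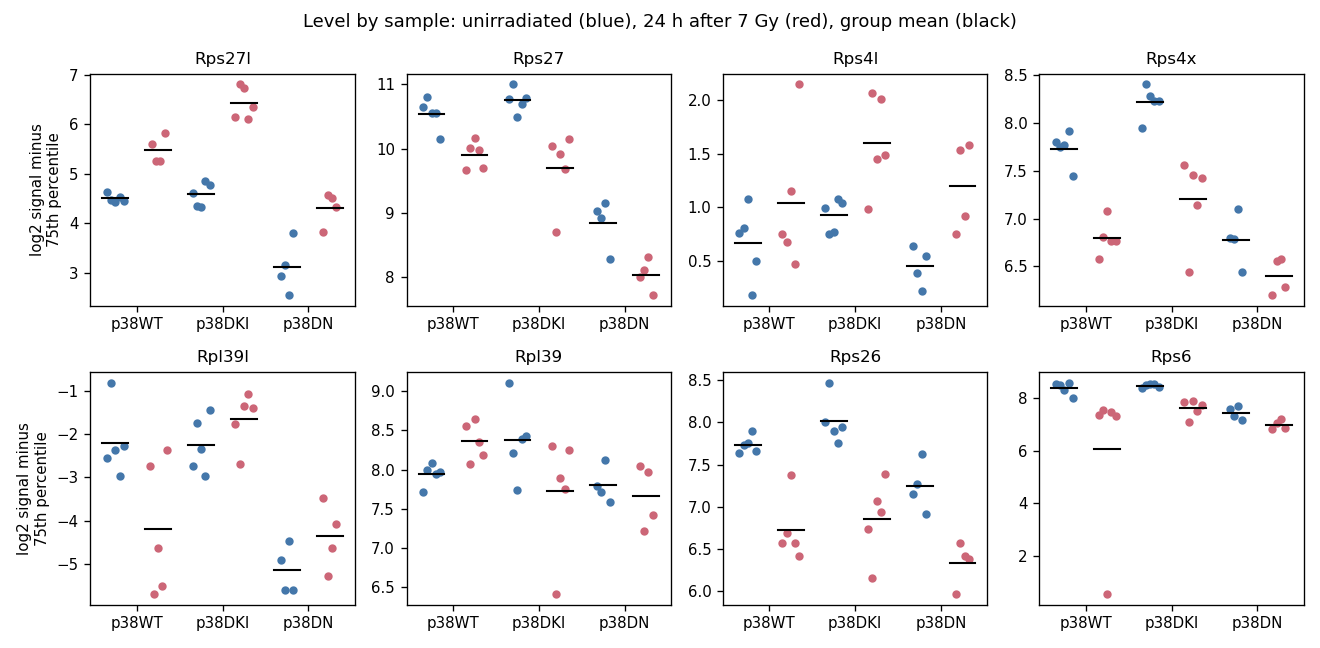
Level of 8 genes in each sample (log2 signal minus the 75th percentile of the array), unirradiated in blue, 24 h after 7 Gy in red, group means in black. Rps27l is higher and Rps27 and Rps26 are lower after irradiation in each genotype, Rps4l is not called, Rpl39l lies near the background and the low red point of Rps6 is irradiated p38WT sample 3.

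The calls of the 3 genotypes come from separate samples and were set side by side. Members lower in all 3 genotypes numbered 10 of 80 (12.5%), against 4.01% of all genes, among them Rpl18, Rpl8, Rps13, Rps15, Rps16, Rps26, Rps27, Rps28 and Rps3. Members lower in both p38WT and p38DKI numbered 33 (41.2%, against 7.96% of all genes), those lower in at least 1 genotype 61 (76.2%, against 25.5%), and 18 (22.5%, against 51.0%) were called in none. Negative changes in all 3 genotypes were found for 69 of 80 members (86.2%) and for 31.4% of all genes. Over the 75 members other than paralogues, which share these arrays and their scaling, the change in p38WT and p38DKI had a Pearson r of 0.36, p38WT and p38DN 0.34, and p38DKI and p38DN 0.59. Over all genes the same correlations were 0.72, 0.54 and 0.57. The p38WT changes include Rps6 and Rps25, whose size rests on 1 array. By rank (Spearman) the members gave 0.47, 0.33 and 0.56, and all genes 0.61, 0.48 and 0.58.

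When each sample's family median was set to 0, which removes the shared fall, some members still stood apart. In p38WT 8 were below the family (among them Rps26, Rpl29, Rpl32l, Rps4x, Rps20, Rpl15 and, near the background, Rpl39l) and 10 above it, where 3.67% of all genes were below and 31.0% above. In p38DKI 0 were below and 8 above, against 4.06% and 38.4% of all genes. In p38DN 4 were below (Rps27, Rps26, Rps15 and Rpl8), a share near the 4.41% of all genes, and 3 above (Rps12, Rps4l and Rps27l), against 24.6%. Rps27l was above the family in each genotype. Genes read by several probes mostly kept 1 sign: of 58 such genes, all probes had the same sign for 53 in p38WT, 57 in p38DKI and 49 in p38DN.

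The second question was whether the p38 genotype changed the response. The irradiation effect in p38DKI minus that in p38WT had a median of -0.28 over the 80 genes, with 0 genes called in either direction by limma (0% of all genes in both directions) and 9 at an unadjusted p under 0.05, against 2595 of all 18733 genes. Its sign depended on the processing: it was -0.06 without irradiated p38DKI array 2, and positive after scaling to the array median (0.15), quantile normalization (0.03) or no scaling (0.76). Rps27l had a difference of 0.86 ± 0.31 (adjusted p = 0.25), and Rplp0 one of -1.02 ± 0.36 (adjusted p = 0.25). The effect in p38DN minus that in p38WT had a median of 0.11 with 0 members called, against 0.384% of all genes lower and 0.48% higher, and 5 members had an unadjusted p under 0.05, against 3330 of 18733 genes. With slide as a fixed block that median was -0.20. The count of lower genes was larger in p38DKI than in p38WT, but for no member did the difference between the genotypes pass the test.

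Without irradiation, the family's median in p38DKI was 0.25 above p38WT, with 0 members lower and 0 higher by limma (0.016% and 0.0854% of all genes) and 3 at an unadjusted p under 0.05, against 1384 of 18733 genes. All p38DKI samples lay above all p38WT samples for 6 members and below for 0, against 2.11% and 0.763% of all genes. The median was -0.10 after scaling to the array median, and -0.20 without scaling. After irradiation the median difference was -0.02, and 2 members were higher in p38DKI than in p38WT and 0 lower, against 1.12% and 3.09% of all genes; 10 members had an unadjusted p under 0.05, against 4610 of 18733 genes. All p38DKI samples lay above all p38WT samples for 1 member and below for 0, against 1.84% and 4.51% of all genes. The 2 members called higher were Rps27l (0.94 ± 0.22, adjusted p = 0.022) and Rpl39l. The size of the Rpl39l difference is not readable, since only 2 of 5 irradiated p38WT arrays were well above background. The Rps27l call was lost in 13 of 33 alternatives (log2 0.45 to 1.79): only those groups in the fit, array-median or no scaling, the family's median at 0, normexp, the deposited table, slide as a fixed block, the liver markers as a covariate, without the arrays high in heart muscle markers, and without irradiated p38DKI sample 2 or irradiated p38WT sample 2 or 4. No slide held both genotypes of either comparison, so genotype and slide cannot be told apart in them.

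Ribosomal proteins with names outside the rule were looked at next. Of 7 measured, 3 were lower in p38WT, 2 in p38DKI and 0 in p38DN, beside 11.9%, 19.2% and 8.72% of all genes. Rack1, a scaffold on the small subunit, was lower, at -0.75 ± 0.20 in p38WT and -0.92 ± 0.19 in p38DKI, and Fau, the ubiquitin-like fusion that carries eS30, at -0.80 ± 0.20 in p38DKI. Rps3a1 read -1.80 ± 0.61 in p38WT through the same irradiated sample 3 (2.16 beside 7.19 to 7.37), and -0.76 (adjusted p = 0.0028) without it. Rpl22l1 was lower in p38WT (-0.52 ± 0.17). Rpl36al and Rpl7l1 were called in no genotype, with p38WT estimates of 0.09 ± 0.21 and 0.33 ± 0.44.

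The rest of the translation apparatus was read from lists. Of all genes, 11.9%, 19.2% and 8.72% were lower in p38WT, p38DKI and p38DN, and 14.9%, 12% and 14.2% were higher. Of 25 elongation factors and other genes with TOP mRNAs, 14 were lower and 1 higher in p38WT, 14 and 0 in p38DKI, and 4 and 1 in p38DN, with medians of -0.59, -0.58 and -0.25. Eef2, the factor that moves the ribosome along mRNA, was lower, at -1.03 ± 0.17, -0.92 ± 0.17 and -0.65 ± 0.19. In p38WT it stood at 7.09, 7.15, 6.95, 7.05 and 6.71 without and 5.38, 6.11, 6.55, 5.96 and 5.79 after irradiation. Pabpc4, a poly(A)-binding protein, was lower, at -1.58 ± 0.27, -2.18 ± 0.27 and -2.06 ± 0.30, and Npm1, the nucleolar chaperone nucleophosmin, at -1.18 ± 0.18 and -0.69 ± 0.18, with -0.04 ± 0.20 in p38DN; the p38DN effect on Npm1 differed from that in p38WT by 1.15 ± 0.27 (adjusted p = 0.039), a call lost in 21 of 41 alternatives (log2 0.72 to 2.14), among them slide as a fixed block, only the compared groups, and several single samples left out.

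Of 28 initiation factors, 13 were lower and 0 higher in p38WT, 5 and 2 in p38DKI, and 3 and 0 in p38DN. The lower share was 46.4%, 17.9% and 10.7%, against 11.9%, 19.2% and 8.72% of all genes. In p38DKI and p38DN it was thus near that of all genes. Eif5, which triggers GTP hydrolysis at the start codon, fell by 1.53 in p38WT, 2.31 in p38DKI and 2.14 in p38DN on the log2 scale. Eif3j1 was lower, at -0.99 ± 0.20, -0.95 ± 0.20 and -0.83 ± 0.23, and Eif5a at -0.78 ± 0.17 in p38WT and -0.59 ± 0.18 in p38DN. Of 61 ribosome biogenesis genes, 32 were lower and 0 higher in p38WT, 21 and 1 in p38DKI, and 11 and 0 in p38DN. Dkc1, the pseudouridine synthase of rRNA, was lower, at -1.10 ± 0.18, -1.35 ± 0.18 and -1.30 ± 0.20. Fbl, the rRNA methyltransferase fibrillarin, was lower at -0.99 ± 0.17 in p38WT and -0.59 ± 0.17 in p38DKI. Ltv1, an assembly factor of the small subunit, was lower at -1.21 ± 0.21 in p38WT and -0.67 ± 0.24 in p38DN. The p38DN call was lost in 13 of 32 alternatives for Ltv1 and in 11 of 32 for Eif5a, among them several single samples left out.

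The 78 genes of the mitochondrial ribosome, a separate machine within mitochondria, had 15 lower and 3 higher in p38WT, 1 and 5 in p38DKI, and 4 and 2 in p38DN, with medians of -0.29, 0.09 and -0.19. Mrpl32 was lower in each genotype (-1.32 ± 0.28, -1.34 ± 0.28 and -1.68 ± 0.31), Mrps30 was lower in p38WT (-0.70 ± 0.15), and Mrpl10 was higher in p38WT (0.52 ± 0.13). In p38DKI, where 68.8% of the cytoplasmic members were lower, 1.28% of the mitochondrial ones and 19.2% of all genes were. The mitochondrial share was 19.2% in p38WT and 5.13% in p38DN, beside 11.9% and 8.72% of all genes.

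**Figure D5:**
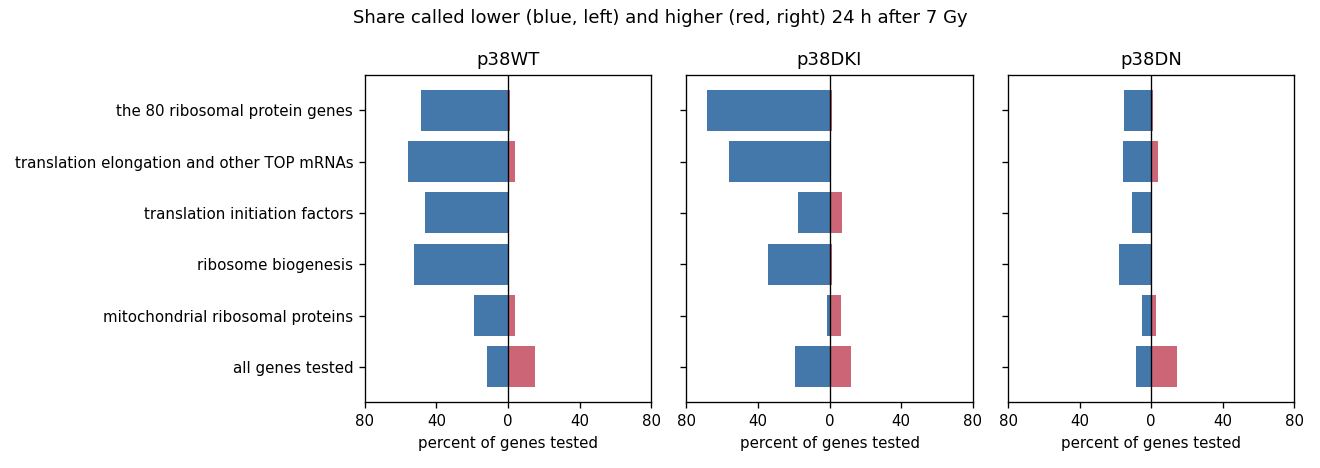
Percent of the genes of each list called lower (blue, to the left) and higher (red, to the right) 24 h after 7 Gy, by genotype, with all genes tested in the last row. The cytoplasmic ribosomal protein genes reach 48.8%, 68.8% and 15% lower, beside 11.9%, 19.2% and 8.72% of all genes.

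Among 23 regulators of ribosomal protein production and of the link to p53, 5 were lower and 3 higher in p38WT, 5 and 3 in p38DKI, and 2 and 4 in p38DN. The lower share was 21.7%, 21.7% and 8.70%, against 11.9%, 19.2% and 8.72% of all genes. In p38DKI and p38DN the lower share was thus near that of all genes. The higher counts stand beside 14.9%, 12% and 14.2% of all genes. Mdm2 rose by 1.33 ± 0.16, 1.29 ± 0.16 and 2.06 ± 0.18 (adjusted p = 2.0e-06, 3.0e-06 and 5.8e-08). Sesn2, a p53 target that restrains mTOR, rose by 1.43 ± 0.22, 0.78 ± 0.22 and 0.81 ± 0.25, whereas Sesn1 was lower, at -0.90 ± 0.27 in p38WT and -0.96 ± 0.27 in p38DKI. Eif4ebp1, the translation repressor 4E-BP1, rose by 1.22 ± 0.21 in p38WT and 0.81 ± 0.21 in p38DKI. Trp53 was lower, at -1.08 ± 0.26, -1.22 ± 0.26 and -0.83 ± 0.29, and Myc, a driver of ribosome production, at -1.13 ± 0.28 in p38WT and -1.06 ± 0.28 in p38DKI. Larp1, which binds TOP mRNAs, was not called, with -0.71 ± 0.27 in p38WT (adjusted p = 0.05).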

How the data were processed

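Total RNA of 30 blood samples was hybridised to 1-colour Agilent mouse arrays, 1 sample per array. Per the file headers, the deposited scanner files hold spot intensity from Agilent Feature Extraction 12.0.2, and the processed signal used here is background-corrected. The authors' deposited value table holds log2 values, whose scaling is not given in the sources used here; it served as an alternative. Control spots and spots marked as non-uniform or population outliers were left out, and spots of a probe were averaged. The log2 signal minus the array's 75th percentile was fitted with limma 3.58.1 in R 4.3.3 on group means, with 7 contrasts and Benjamini-Hochberg adjustment over 18733 genes (23617 of 39429 probes kept, each valued on at least 20 arrays). The p38DN pairs close in cell marker levels were found and averaged after the data were seen. The array printings differ in gene names at 2693 spots, and the names of 20 files were used.

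The members, the gene lists and the tests were chosen with earlier results of these data known. Genes named are, per irradiation effect, the 5 largest falls and up to 5 largest rises among called members whose groups do not overlap; up to 3 per direction in other comparisons; Rplp0, Rplp1, Rplp2, Rpsa, Rpl5, Rpl11, Rpl23, Rpl26, Rps7, Rps19, Rps6, Rpl13a, Rps4x and the paralogues with their parents; the highest and lowest in level; and, outside the family, the 3 genes of each list with the smallest p in p38WT plus Mdm2, Trp53, Myc, Sesn1, Sesn2 and Larp1. Rpl32l and genes listed by shared calls were named after their values were seen. Some genes that fall under these rules are not reported here. Alternatives changed the background correction, scaling, filter, probe, block, fit and samples. The fit was tested on simulated data with independent noise for each gene. These data held no shift shared by an array or slide, so the simulation cannot speak to such shifts. The number of arrays limits the precision.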

Additional observations from a re-analysis of the deposited data

Results flagged for a closer look

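Each group was searched for a sample far from the rest, by the gap to its nearest neighbour over the group's range; 14 of 204 searches found one, where chance gives about 1 in 20. In irradiated p38DKI, sample 2 was far below the others for the median of the 80 genes (7.19 beside 8.10 to 8.40), Rpl12 (6.91 beside 8.16 to 8.38), Rpl13a (5.83 beside 6.65 to 6.78), Rpl26 (6.11 beside 7.09 to 7.49), Rpl39 (6.42 beside 7.76 to 8.30), Rpl8 (6.94 beside 7.83 to 8.03) and Rps28 (7.18 beside 8.13 to 8.48). It is the array with the highest liver marker level, 8.82 log2 above the median array, and the part of that in its low family level was not tested.

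In irradiated p38WT, sample 3 was far above the others for the median of the 80 genes (8.48 beside 8.001 to 8.08) and for Rps26 (7.37 beside 6.41 to 6.69). It was far below for Rps6 (0.54 beside 7.32 to 7.55) and Rps25 (-0.034 beside 6.37 to 6.68). Its array had the lowest share of probes well above background, 39.7%, and no value for several members. In unirradiated p38WT, sample 5 was far below for Rpl10 (9.52 beside 10.35 to 10.45), Rpl29 (8.59 beside 9.15 to 9.37) and Rpsa (9.31 beside 9.60 to 9.69). Sample 5 was the 1 unirradiated p38WT array on the slide that also held irradiated p38WT arrays.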

How the results depend on the processing

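Over 486 values of the comparisons under the alternatives, 394 stayed within the limits set and 92 moved. The limits were a count within 1.5 times and a median within 0.281 log2, the SD between arrays of a group. Counted once per alternative, the named gene calls gave 3407 readings, of which 2809 were kept, 585 lost and 13 reversed. Only 4 named gene calls were kept under every alternative: Eif5 and Pabpc4 in p38DKI, and Mdm2 in p38DKI and p38DN. No call of a ribosomal protein gene was among them. The normexp correction gave fitted background means below -20 on 9 of 30 arrays (lowest -969), so its values are distorted.

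The median of the 80 genes moved as follows. In p38WT it was -0.017 with the family's median set to 0, -0.93 without scaling, -1.28 with normexp and -0.17 with slide as a fixed block. In p38DKI it was 0.053 with the family's median at 0, -0.11 without scaling, -0.39 with normexp, -0.31 with quantile normalization, -0.32 with the array median and -0.42 with the slide block. In p38DN it was -0.011 with the family's median at 0, -0.075 with normexp and -0.080 with quantile normalization. For the p38DKI effect minus the p38WT effect it was 0.11 with background subtraction, 0.10 with the deposited table, 0.022 with the family's median at 0, 0.76 without scaling, 0.91 with normexp, 0.027 with quantile normalization and 0.15 with the array median. For p38DN minus p38WT it was 0.72 without scaling, 1.16 with normexp and -0.20 with the slide block. For p38DKI against p38WT it was 0.58 without scaling, 0.66 with normexp and 0.61 with the slide block after irradiation, and -0.20, -0.24 and 0.81 before it, with -0.10 for the array median.

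Lower genes in p38WT numbered 8 with the family's median at 0, 3 with normexp, 0 with slide as a fixed block and 11 without arrays high in heart muscle markers. In p38DKI they numbered 33 with the deposited table, 0 with the family's median at 0, without scaling, with normexp and with the slide block, 25 with quantile normalization and 15 with the array median. In p38DN they numbered 29 with the percentile over detected probes, 23 with the deposited table, 32 with the liver markers as a covariate, 4 with the family's median at 0, with no filter and with the array median, 0 without scaling and with normexp, 1 with only the compared groups and with quantile normalization, 5 without arrays high in heart muscle markers and 34 without the 4 arrays highest in liver markers. With the family's median at 0, 1 was lower in p38DKI than p38WT after irradiation.

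Higher genes in p38WT numbered 10 with the family's median at 0, 0 without scaling, with normexp and with the slide block, and 2 with quantile normalization. In p38DKI they numbered 8 with the family's median at 0, 0 with the slide block, and 2 with 30 separate arrays, background subtraction, the deposited table, no scaling, probes above background on all arrays, the array median and slide as a random block. In p38DN they numbered 3 with the family's median at 0, 0 with normexp, and 2 with the liver covariate, probes above background on all arrays and quantile normalization. For p38DN minus p38WT 1 was higher with 30 separate arrays, background subtraction, the mean of probes, no scaling, the random slide block and without the p38DKI array high in liver markers. Between irradiated p38DKI and p38WT, 4 were higher with the percentile over detected probes and without the 4 liver-high arrays, 6 with background subtraction, 5 with the deposited table, 1 without scaling, with probes above background on all arrays and with the array median, and 0 with normexp, only the compared groups, the fixed slide block and without heart-high arrays. Before irradiation 3 were higher with the liver covariate.

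Leaving out each sample in turn gave 24 to 40 lower genes in p38WT, 43 to 65 in p38DKI and 2 to 15 in p38DN, 1 to 2 higher genes in p38DKI and p38DN, 1 to 3 between irradiated p38DKI and p38WT, and 0 to 1 for p38DN minus p38WT. The medians ranged from -0.58 to -0.45, -0.82 to -0.53 and -0.48 to -0.29 in the 3 genotypes, from -0.35 to -0.06 for p38DKI minus p38WT and from -0.0010 to 0.22 for p38DN minus p38WT.

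With the replicate number as a block on all 30 arrays, lower genes numbered 39, 57 and 15, and 1 member was higher for p38DN minus p38WT; within p38DN alone, where a number is a slide, 17 were lower. The correlation of same-numbered samples ranged from -0.21 to 0.41; the numbers pair arrays by slide within p38DN, but not in p38WT or p38DKI.

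The readings that changed sign were counted by sign alone, whatever their adjusted p, so they are not calls in the other direction. They were Rpl39l with normexp (0.13 in p38WT, -0.00047 between irradiated groups). In p38DKI without scaling they were Fbl (0.036), Rpl11 (0.069), Rpl23 (0.018) and Rpl26 (0.052). In p38DKI with the family's median at 0 they were Fbl (0.20), Npm1 (0.10), Rpl11 (0.23), Rpl23 (0.18), Rpl26 (0.22), Rpl3 (0.14) and Rpl6 (0.14). The Rpl genes in that last setting had limma adjusted p of 0.19 to 0.62. Apart from fits that hold fewer samples or centre on the family, the cause was not tested. Near the background, Rpl39l and Rpl10l are limited by signal.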
